A study of Mus musculus with 6 samples.

Results

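A set of 10 genes that mark satellite cells or drive the myogenic programme was described in the gastrocnemius (Gas) muscle of WT mice and of mice without miR-92b (M92KO). They were found by their symbols among the 34714 gene symbols of the count table: Pax7, Pax3, Cdh15, Calcr, Myf5, Myod1, Myog, Myf6, Mef2a and Mef2c. All 10 passed the filter on low counts that left 15788 genes for testing. The study sequenced Gas muscle from 3 WT and 3 M92KO mice, with 1 library for each mouse. All mice were 8-week-old males without treatment. The M92KO mice lacked miR-92b in every cell (miR-92b-/-, C57BL/6JGpt background), so the deletion was present in satellite cells and in fibres alike. The WT controls were age-matched C57BL/6 mice, which were not described as littermates. The comparison asked how the loss of miR-92b altered gene expression in Gas muscle. The paper describes an overnight fast before muscle was taken, and does not say separately whether the sequenced mice had been exercised. The deletion itself was not checked here, because no row for the microRNA was found in the count table, which was read by gene symbol. The paper reports its own qPCR check of the knockout in Gas muscle.

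Satellite cells are the stem cells of skeletal muscle and lie between the fibre and its basement membrane. They rest in adult muscle, and on injury they divide, form myoblasts and fuse into fibres. Pax7 and Pax3 stand at the head of this sequence, Myf5 and Myod1 commit cells to the myogenic fate, Myog and Myf6 act in differentiation, and the MEF2 factors work with them on muscle genes. In whole muscle most RNA comes from the fibres, and fewer cells of a type and less RNA per cell cannot be told apart for any gene reported here.

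The mature miR-92b strands are shown because their seeds, bases 2 to 8 in capitals, define the sequences that could pair with a messenger RNA. Both lie on the minus strand of chromosome 3 (RefSeq, GRCm38.p6), at chr3:89227126-89227147 for the 3p strand and chr3:89227165-89227188 for the 5p strand.

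miR-92b-3p: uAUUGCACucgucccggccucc

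miR-92b-5p: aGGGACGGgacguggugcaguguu

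Matches to these seeds were looked for on the transcript strand of the annotated 3′-UTRs (GENCODE M21, GRCm38) of the 10 genes. A match was GTGCAATA, GTGCAAT or TGCAATA for the 3p strand, where the 7-base motifs lie within the 8-base one, and CCGTCCCA, CCGTCCC or CGTCCCA for the 5p strand. Pax3 held an 8-base match to the 3p seed, Myf5 a 7-base match to the 3p seed, and Pax7 a pair of 7-base matches to the 5p seed. The Pax7 matches lie in 1 of its 2 transcripts with an annotated 3′-UTR (111 and 3725 bases). Which of these transcripts is present in this muscle was not measured. The 4 sites are printed with the matching bases in capitals, and each lies on the minus strand.

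Pax3, 3p seed, chr1:78101946-78101953: tgcttctcagcGTGCAATActgtgtacctc

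Myf5, 3p seed, chr10:107483853-107483859: aaagtcacattTGCAATAatggattctcc

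Pax7, 5p seed, chr4:139738341-139738347: tccctctgtggCCGTCCCtctggggttga

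Pax7, 5p seed, chr4:139738355-139738361: cctctccgccgCCGTCCCtctgtggccgt

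Matches of these lengths were common. Among 13495 tested genes with an annotated 3′-UTR, 1960 (14.5%) held one to the 3p seed and 800 (5.93%) held one to the 5p seed, against 2 and 1 of the 10 genes here. An 8-base match to the 3p seed was present in 389 genes (2.88%). The remaining 7 genes held none of these letters in their annotated 3′-UTRs.

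The library totals lay between 33160508 and 48209846 counts, with the 3 M92KO libraries all below the 3 WT libraries. Levels are given in CPM, the counts scaled to TMM-normalized library sizes. A floor of 3 counts, for counting error only, was 0.0629 CPM in the deepest library and 0.0916 CPM in the shallowest. Fibre genes dominated every library, with Acta1, the skeletal actin, at 25650 to 27460 CPM and Ckm, the muscle creatine kinase, at 13550 to 17500 CPM. Labels did not say whether the replicates of a genotype shared a cage or litter, and a p-value measures only the spread between these mice.

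Pax7, the paired-box factor of satellite cells, and Cdh15, the M-cadherin of satellite cells and myoblasts, had higher levels in every M92KO library than in any WT library. Calcr, the calcitonin receptor, which is carried by resting satellite cells, had a lower level in every M92KO library. The other 7 genes overlapped. After adjustment of edgeR's quasi-likelihood p-values, 0 of the 10 genes lay under 0.05, as did 0.0% of all genes tested. At an unadjusted p-value of 0.05, 3 of the 10 genes differed, against 12.4% of all genes tested. Of these, 2 were higher in M92KO mice, against 5.47% of all genes, and 1 was lower, against 6.92%. The same 3 genes were those whose genotypes did not overlap, which was the case for 18.4% of all genes. With DESeq2's Wald test 0 of the 10 genes passed the adjusted threshold, against 2.04% of all genes (322 of 15788). The median difference of the 10 genes was 0.06 on the log2 scale, beside -0.0001 over all genes tested.

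**Figure D1:**
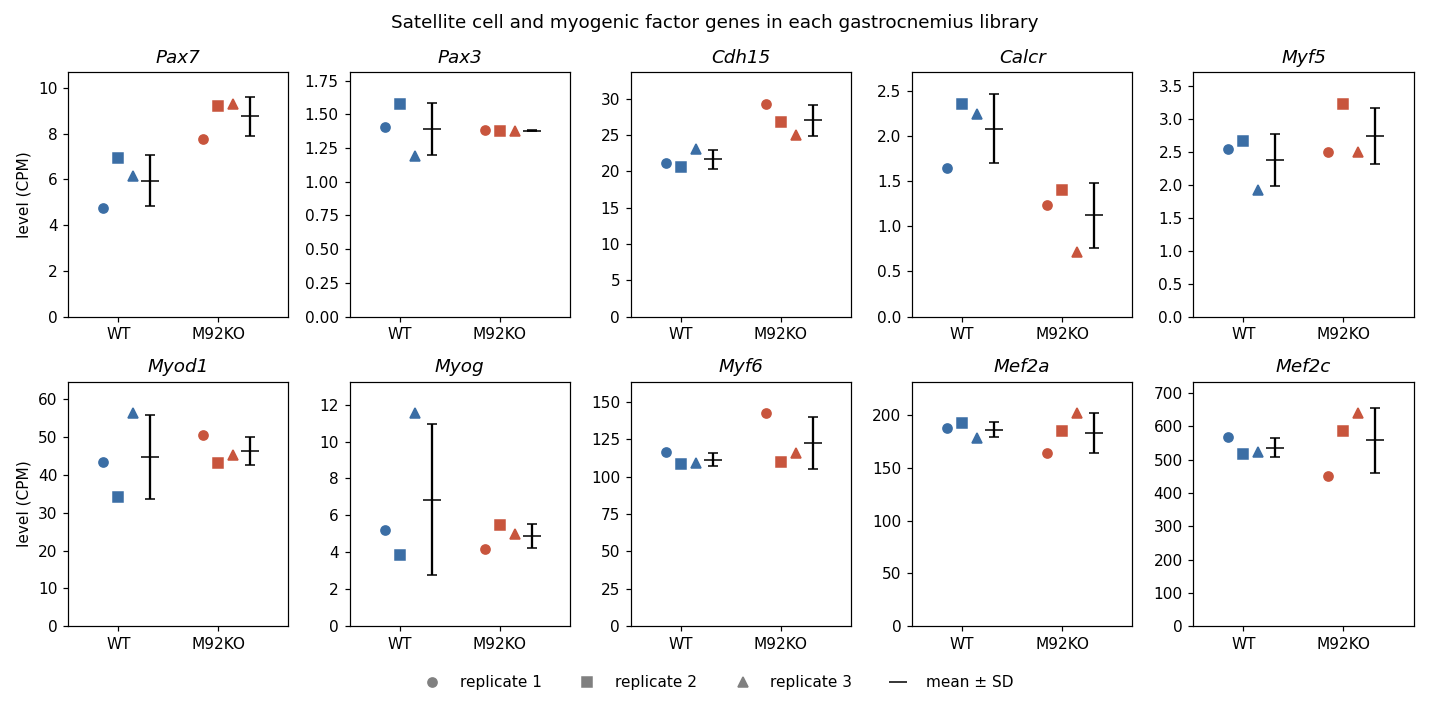
Level of each of the 10 genes in each library in CPM, with a linear axis from 0 in every panel, 3 WT libraries in blue and 3 M92KO libraries in red. Markers give the replicate number and the bar gives mean ± SD. The M92KO points lie above all WT points for Pax7 and Cdh15 and below them for Calcr, and the groups overlap in the other 7 panels.

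Among the genes of resting satellite cells, Pax7 (ENSMUSG00000028736, chr4:139737062-139833528, minus strand) was counted 220, 268 and 293 times in the WT libraries and 270, 301 and 338 times in the M92KO libraries. Scaled to library size, its level was 4.76, 6.94 and 6.14 CPM in WT mice and 7.78, 9.19 and 9.31 CPM in M92KO mice. The lowest M92KO library lay above the highest WT library. The means were 5.95 ± 1.10 CPM in WT and 8.76 ± 0.854 CPM in M92KO mice (SD, n = 3 each). The log2 fold change was 0.56 (SE 0.156, 95% interval 0.204 to 0.917), with an adjusted p-value of 0.234 in edgeR. An exact permutation test gave p = 0.1, the smallest two-sided value that 3 against 3 mice allow.

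Pax3 (ENSMUSG00000004872, chr1:78101267-78197134, minus strand), the paralogue of Pax7 that is active in embryonic muscle progenitors and in some adult satellite cells, had the lowest level of the set per transcript length in WT mice. It stood at 1.41, 1.58 and 1.19 CPM in WT and at 1.38, 1.37 and 1.38 CPM in M92KO mice, so that the M92KO values fell within the WT range. The difference was -0.01 on the log2 scale (SE 0.203, 95% interval -0.476 to 0.451, adjusted p-value 0.987 with edgeR), an interval that leaves room for changes in either direction. The 8-base match shown above for Pax3 was not accompanied by a detectable difference at 45 to 65 counts in each library.

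Cdh15 (ENSMUSG00000031962, chr8:122847966-122867397, plus strand) holds satellite cells to the fibre and was counted more often than Pax7. Its level was 21.2, 20.6 and 23.1 CPM in WT mice and 29.3, 26.8 and 25.04 CPM in M92KO mice. The genotypes did not overlap, and the means were 21.6 ± 1.32 and 27.1 ± 2.13 CPM (SD, n = 3 each). The log2 fold change was 0.32 (SE 0.0868, 95% interval 0.124 to 0.52), a fold of 1.25, with an adjusted p-value of 0.22 in edgeR and p = 0.1 in the exact permutation test.

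Calcr (ENSMUSG00000023964, chr6:3685680-3764714, minus strand) had few counts, 76, 91 and 107 in WT and 43, 46 and 26 in M92KO mice. The level was 1.65, 2.36 and 2.24 CPM in WT mice and 1.24, 1.41 and 0.716 CPM in M92KO mice. The highest M92KO library lay below the lowest WT library, and the lowest, M92KO replicate 3, had a 95% Poisson interval of 0.468 to 1.05 CPM. Means were 2.08 ± 0.382 CPM in WT and 1.12 ± 0.359 CPM in M92KO mice (SD, n = 3 each). The log2 fold change was -0.90 (SE 0.282, 95% interval -1.539 to -0.252), with an adjusted p-value of 0.276 in edgeR and p = 0.1 in the exact permutation test. Leaving out each library in turn gave a log2 difference between -1.09 and -0.65.

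Since Pax7 and Calcr mark the same cells, the counts of several satellite cell genes were also divided by the Pax7 count of the same library, which removes the library size from the comparison. The 8 ratios were chosen after the values were seen. Calcr had 0.346, 0.340 and 0.365 counts per Pax7 count in WT mice and 0.159, 0.153 and 0.0769 in M92KO mice. The WT ratios were close to each other, and the mean WT ratio (0.350 ± 0.0134) was 2.70 times the mean M92KO ratio (0.130 ± 0.0458, SD, n = 3 each). Spry1, which restrains growth factor signalling in resting satellite cells, had 8.73, 7.22 and 9.28 counts per Pax7 count in WT and 4.30, 4.22 and 4.02 in M92KO mice. The ratios of Chrdl2 and Pax3 to Pax7 were also lower in every M92KO library than in any WT one, with WT means 2.24 and 1.51 times the M92KO means. The ratios of Cdh15, Myf5, Itga7 and Myod1 overlapped. The exact permutation test on the log2 ratios gave p = 0.1 for Calcr, Pax3, Spry1 and Chrdl2, the smallest value it can give here. After adjustment over the 8 ratios this was 0.2, so none of them passed 0.05. All 8 share the Pax7 count, which was itself higher in CPM in every M92KO library, and since Calcr, Spry1 and Chrdl2 were lower in every M92KO library, the order of their ratios follows from the levels.

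**Figure D2:**
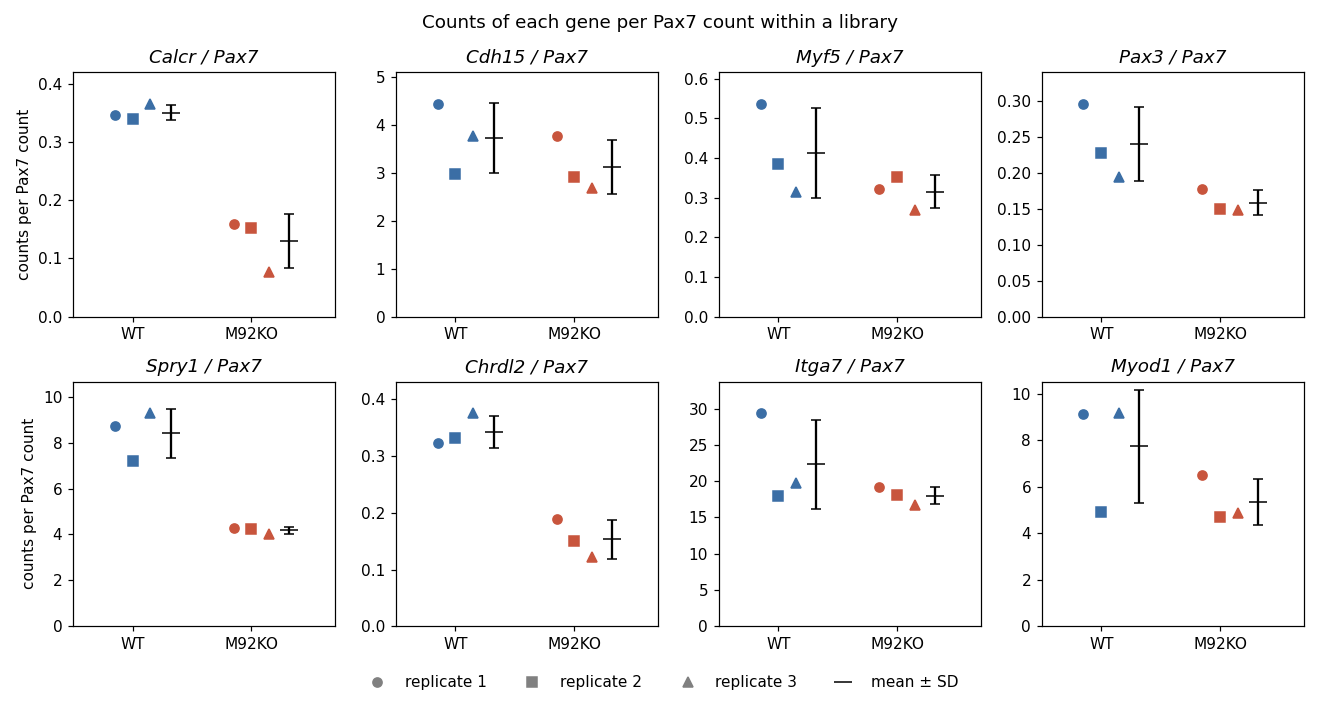
Counts of each gene per Pax7 count in the same library, on linear axes from 0, for 3 WT libraries in blue and 3 M92KO libraries in red, with mean ± SD. The M92KO points lie below all WT points for Calcr, Pax3, Spry1 and Chrdl2, and the groups overlap for Cdh15, Myf5, Itga7 and Myod1.

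Among the genes of commitment, Myf5 (ENSMUSG00000000435, chr10:107482908-107486134, minus strand), the first of the myogenic factors to act in the embryo, stood at 2.55, 2.67 and 1.93 CPM in WT and at 2.51, 3.24 and 2.51 CPM in M92KO mice. The groups overlapped, and the log2 fold change was 0.21 (SE 0.197, 95% interval -0.243 to 0.658, adjusted p-value 0.727 with edgeR). Myf5 holds a 3p seed match, and its level showed no difference that could be detected with 87 to 118 counts in a library. Myod1 (ENSMUSG00000009471, chr7:46376474-46379099, plus strand), the factor that can turn other cells into muscle, stood at 43.5, 34.2 and 56.3 CPM in WT mice. Its M92KO levels of 50.6, 43.2 and 45.3 CPM lay within that range. The SD was 11.1 CPM in WT and 3.80 CPM in M92KO mice, and the log2 fold change was 0.05 (SE 0.160, 95% interval -0.313 to 0.419, adjusted p-value 0.929 with edgeR).

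Among the genes of differentiation, Myog (ENSMUSG00000026459, chr1:134289989-134292548, plus strand), the factor that myoblasts need to form fibres, varied most between WT libraries. Its level was 5.20, 3.86 and 11.5 CPM in WT mice and 4.20, 5.50 and 4.99 CPM in M92KO mice. WT replicate 3 had 2.22 times the level of the next WT library, whereas the other 5 libraries lay close together. The means were 6.86 ± 4.10 and 4.90 ± 0.651 CPM (SD, n = 3 each), and the log2 fold change was -0.49 (SE 0.361, 95% interval -1.316 to 0.33, adjusted p-value 0.643 with edgeR). Without WT replicate 3 the difference turned to 0.11. Myod1 was also highest in that library, and so were Cdkn1a, the cell cycle inhibitor that is induced as myoblasts stop dividing (29.2, 43.1 and 68.9 CPM in WT mice), and Mybph, a myosin binding protein (29.3, 41.1 and 92.1 CPM in WT mice). Other genes of the differentiation and fusion list described below were lowest of the WT libraries in WT replicate 3. In WT mice Myh3 stood at 26.6, 22.7 and 20.4 CPM and Musk at 16.0, 16.4 and 14.1 CPM. Mybph, Myh3 and Musk were picked out after their values were seen.

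Myf6 (ENSMUSG00000035923, chr10:107492853-107494737, minus strand), the myogenic factor kept on by adult fibres, neighbours Myf5 but was far more abundant. It stood at 116, 109 and 109 CPM in WT and at 142, 110 and 116 CPM in M92KO mice. Only M92KO replicate 1 lay well above the others, and the log2 fold change was 0.14 (SE 0.1002, 95% interval -0.088 to 0.369, adjusted p-value 0.634 with edgeR). Without that library it was 0.02.

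The MEF2 factors bind muscle gene promoters together with the myogenic factors and are held back by class IIa histone deacetylases. Mef2a (ENSMUSG00000030557, chr7:67231163-67372858, minus strand) stood at 188, 192 and 179 CPM in WT and at 164, 185 and 202 CPM in M92KO mice. Its log2 fold change was -0.02 (SE 0.0859, 95% interval -0.218 to 0.173, adjusted p-value 0.945 with edgeR). An exon of Mef2a overlaps Lysmd4 on the opposite strand, and since the strandedness of the counting is not given in the sources used here, reads of both genes could not be told apart.

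Mef2c (ENSMUSG00000005583, chr13:83504034-83667080, plus strand) had the most counts of the set, at 567, 516 and 523 CPM in WT and 450, 586 and 639 CPM in M92KO mice. The M92KO libraries lay on both sides of the WT libraries, with an SD of 97.6 CPM against 27.9 CPM in WT. The log2 fold change was 0.06 (SE 0.124, 95% interval -0.223 to 0.342, adjusted p-value 0.89 with edgeR). M92KO replicate 1 was the lowest of all 6 libraries for both Mef2a and Mef2c and the highest for Myf6, and without it the difference of Mef2c was 0.19.

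**Figure D3:**
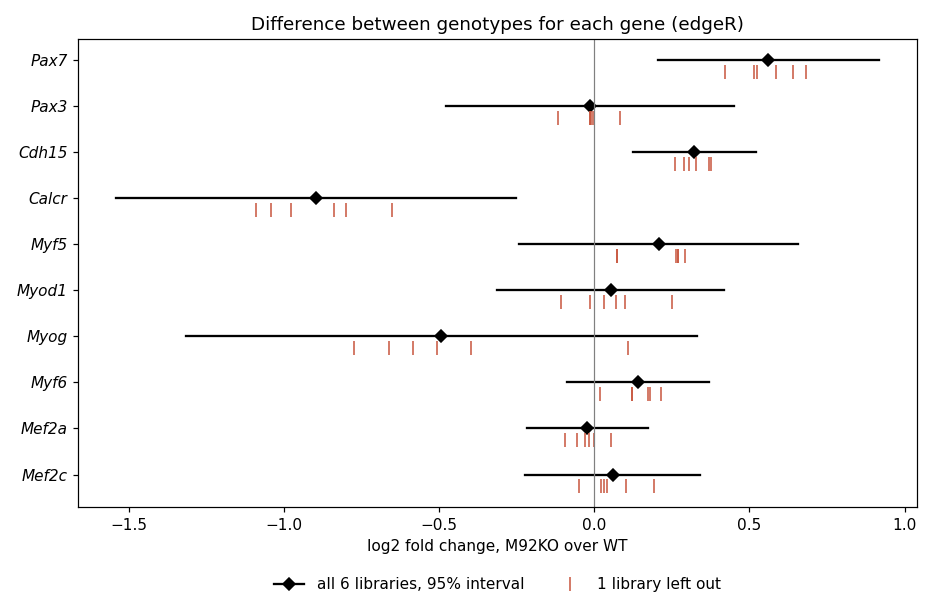
Log2 fold change of M92KO over WT for each of the 10 genes (diamonds) with its 95% interval from edgeR (lines), and the same difference with each library left out in turn (red ticks). The intervals of Pax7, Cdh15 and Calcr do not reach 0, before adjustment for the 15788 genes tested, and a tick of Myog lies on the other side of 0, at 0.11 without WT replicate 3.

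Dividing the CPM by the length of the longest annotated transcript gave the order of the levels. In WT mice Myf6 (88.1 ± 3.43 CPM per kb) and Mef2c (85.3 ± 4.45 CPM per kb) came first, and their libraries overlapped. Mef2a (33.7 ± 1.27 CPM per kb) and Myod1 (24.0 ± 5.95 CPM per kb) followed and did not overlap. Below them came Cdh15 (6.66 ± 0.406 CPM per kb) and Myog (4.59 ± 2.74 CPM per kb), which overlapped through WT replicate 3. Myf5 (1.14 ± 0.191 CPM per kb) and Pax7 (1.02 ± 0.188 CPM per kb) overlapped in WT, and Calcr (0.553 ± 0.102 CPM per kb) and Pax3 (0.361 ± 0.0499 CPM per kb) were lowest, without overlap. In M92KO mice the mean of Calcr was 0.298 CPM per kb and that of Pax3 was 0.357 CPM per kb, the opposite order, with overlapping libraries. Pax7 (1.496 CPM per kb) and Myf5 (1.32 CPM per kb) also stood in the opposite order in M92KO mice, and overlapped there too. The order depends on which transcripts are present: with the length of all annotated exons, Mef2c came to 34.1 and Mef2a to 12.7 CPM per kb in WT, the latter below Myod1.

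**Figure D4:**
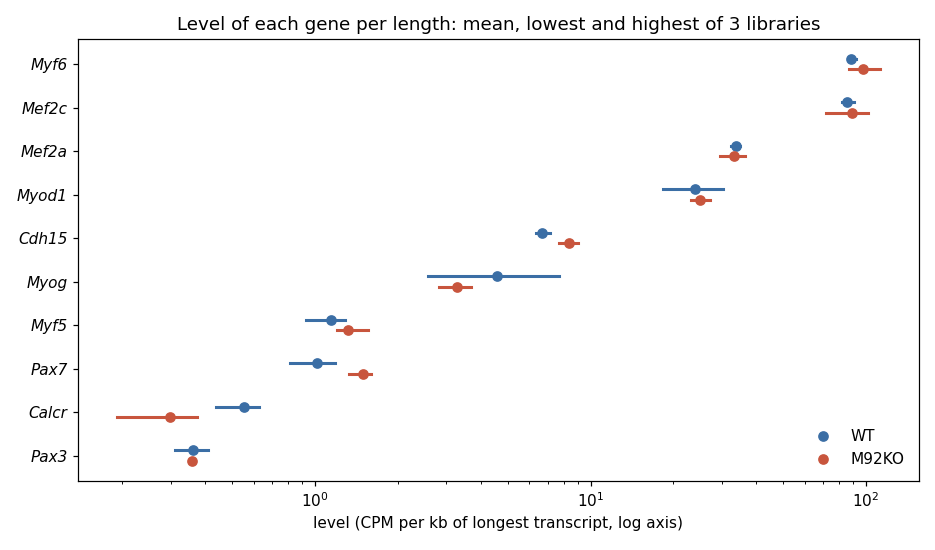
Mean level of each gene (points) with the lowest and highest of 3 libraries (lines), in CPM per kb of the longest annotated transcript on a log axis, WT in blue and M92KO in red. Myf6 and Mef2c stand highest, at 88.1 and 85.3 CPM per kb in WT, and the satellite cell genes Pax7, Calcr and Pax3 stand at or below 1.02 CPM per kb in WT.

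The upstream 250 bases of RefSeq starts (GRCm38.p6) were searched for E-boxes, the motif CANNTG bound by the myogenic factors, which reads the same on both strands. Of 32851 promoters of that length, 66.2% held at least 1. The sequence of Myog is shown because its promoter is a textbook target of the myogenic factors, and that of the more upstream start of Calcr because Calcr had the largest fold change of the 10 genes, each with E-boxes in capitals.

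Myog, chr1:134289754-134290003, plus strand: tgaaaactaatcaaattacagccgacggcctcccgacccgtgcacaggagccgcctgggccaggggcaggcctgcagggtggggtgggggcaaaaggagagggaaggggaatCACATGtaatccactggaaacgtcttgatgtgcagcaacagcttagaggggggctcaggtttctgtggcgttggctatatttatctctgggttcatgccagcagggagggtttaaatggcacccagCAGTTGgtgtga

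Calcr, chr6:3764714-3764963, minus strand: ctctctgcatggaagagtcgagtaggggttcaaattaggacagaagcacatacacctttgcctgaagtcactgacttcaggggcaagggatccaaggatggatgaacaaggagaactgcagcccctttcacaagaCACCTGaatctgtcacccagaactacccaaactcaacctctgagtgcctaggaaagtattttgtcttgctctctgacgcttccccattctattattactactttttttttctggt

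Myog held 2 E-boxes and this start of Calcr held 1, while the other start of Calcr held 0. These are matches of letters, and binding was not measured.

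The genes whose levels ran most like those of Pax7 over the 6 libraries, by the root mean square distance of centred log2 CPM, were Lst1 (0.084), Gm31728 (0.0879) and Gm34455 (0.108). Pax7's own root mean square deviation was 0.335. Lst1 and Gm31728 had low levels, above the floor but at or below 0.441 CPM in every library. Gm34455 stood at 22.4, 31.8 and 24.4 CPM in WT and at 36.6, 39.7 and 36.6 CPM in M92KO mice. For Myod1, whose own deviation was 0.221, the closest genes were A630077J23Rik (0.061), Gpsm2 (0.0629) and Gm35816 (0.0685). Gpsm2 was the most abundant of these, at 3.59, 3.21 and 4.76 CPM in WT and 4.58, 3.70 and 3.99 CPM in M92KO mice.

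Genes known to act with these factors were taken as lists. The lists were chosen with earlier results of these data known, so their counts only describe these data. Of 34 genes of satellite cell quiescence and surface, 33 were tested. At an unadjusted p-value of 0.05, 10 were lower and 1 was higher in M92KO mice, against 6.92% and 5.47% of all genes tested, 0 passed the adjusted threshold in edgeR, and the median difference was -0.20 on the log2 scale beside -0.0001 over all genes. Notch1, the receptor whose signal keeps satellite cells at rest, stood at 52.0, 61.0 and 60.6 CPM in WT and at 39.0, 47.3 and 45.2 CPM in M92KO mice (log2 fold change -0.40, adjusted p-value 0.188 with edgeR). Spry1 stood at 41.6, 50.1 and 56.97 CPM in WT and at 33.4, 38.8 and 37.4 CPM in M92KO mice (-0.44, adjusted p-value 0.214). Neither gene overlapped between the genotypes. Itga7, the laminin receptor subunit of satellite cells and fibres, was the one gene of the list that was higher, at 140, 125 and 121 CPM in WT and 149, 166 and 156 CPM in M92KO mice (0.29, adjusted p-value 0.225).

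The other 8 genes of the list that were lower at the unadjusted threshold, named here after their values were seen, were the Notch ligands Dll1 (-0.55) and Dll4 (-0.41), the growth arrest gene Gas1 (-0.77), the collagen chain gene Col5a3 (-0.26), the BMP antagonist relative Chrdl2 (-0.63), the chemokine receptor Cxcr4 (-0.39), the syndecan Sdc4 (-0.29) and the HGF receptor Met (-0.20), each as a log2 fold change. The adjusted p-values of these 8 lay between 0.245 and 0.391. Several of them are also expressed outside satellite cells, Notch1 and Dll4 in endothelium among them. The count of 11 came to 6 without WT replicate 3, to 7 without M92KO replicate 2 and to 5 with the study's own steps (quantile normalization and limma).

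Markers of other cell types were in part lower in the same libraries. The summed level of 10 fibroblast and fibro-adipogenic progenitor markers was 2431 to 3205 CPM in WT and 1890 to 2405 CPM in M92KO mice, without overlap, and 3 of the 10 were lower and 1 was higher at the unadjusted threshold (6.92% and 5.47% of all genes tested). Dcn, a matrix proteoglycan, was lower at a log2 fold change of -0.33, Col1a2 at -0.53 and Col1a1, the partner chain of Col1a2 and named after its values were seen, at -0.55, while Ly6a, a surface marker of these progenitors, was higher at 0.37. The sums of 10 endothelial markers (1133 to 1229 CPM in WT and 1032 to 1211 CPM in M92KO mice, with Tie1 lower) and of 10 leukocyte markers (162 to 167 and 129 to 163 CPM, with Ptprc and Cd74 lower) overlapped. The 10 smooth muscle and pericyte markers summed to 1669 to 1727 CPM in WT and 1459 to 1669 CPM in M92KO mice, without overlap before rounding, with Rgs5 and Mcam lower and Cspg4 higher. The 8 Schwann cell and nerve markers summed to 135.5 to 185 CPM in WT and 134.6 to 140.4 CPM in M92KO mice. Of these, 4 were lower at the unadjusted threshold, with Mbp, Ngfr and Pmp22 leading by p-value. The shares of all genes tested, 6.92% lower and 5.47% higher, also stand beside the genes named for the endothelial, leukocyte and smooth muscle lists. All markers of these lists had counts in every library except 2 of the leukocyte list. These counts moved with single libraries: with each left out in turn, the genes past the unadjusted threshold numbered 3 to 6 for the fibroblast list (6 without M92KO replicate 2, and 1 higher and 1 lower with the study's steps), 1 to 4 for the endothelial list (4 without M92KO replicate 2), 0 to 3 for the leukocyte list (0 without WT replicate 2 or WT replicate 3), 0 to 3 for the smooth muscle list (0 without M92KO replicate 2) and 0 to 5 for the Schwann cell list (0 without WT replicate 2). With the study's steps, 0 genes of the leukocyte list and 0 of the Schwann cell list passed the unadjusted threshold, beside 1 of the endothelial and 3 of the smooth muscle list. The part of these cells in the differences of the satellite cell genes was not tested.

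Of 16 partners and inhibitors of the myogenic factors, 14 were tested, with 1 higher and 1 lower at the unadjusted threshold, which is near the share of all genes tested (5.47% higher, 6.92% lower). Bhlhe41, a repressor of Myod1 activity, stood at 69.4, 74.6 and 82.8 CPM in WT and at 93.2, 81.9 and 93.1 CPM in M92KO mice (log2 fold change 0.24, adjusted p-value 0.336 with edgeR). Id1, which binds the E-protein partners of the myogenic factors, stood at 22.4, 36.9 and 40.5 CPM in WT and at 15.9, 22.4 and 28.1 CPM in M92KO mice (-0.59, adjusted p-value 0.388). Both overlapped between genotypes. The 2 genes past the unadjusted threshold came to 1 without WT replicate 1 or M92KO replicate 3, to 0 without WT replicate 2 and, at most, to 3 without M92KO replicate 2.

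Of 22 genes of the MEF2 family and its regulators, 21 were tested, and 2 were lower and 0 higher at the unadjusted threshold. Of all genes tested 12.4% passed it in either direction, more than in this list, in which 12 genes lay above 0 and 9 below. The 2 genes belong to the class IIa histone deacetylases, which repress MEF2 factors, and the other members of that class on the list overlapped between the genotypes, Hdac5 at a log2 fold change of 0.13 (adjusted p-value 0.545 with edgeR) and Hdac7 at 0.02 (0.941), both named after their values were seen. Hdac4 stood at 65.6, 65.2 and 70.2 CPM in WT and at 49.6, 53.4 and 49.5 CPM in M92KO mice, without overlap and with little spread within a genotype (log2 fold change -0.40, SE 0.0678, adjusted p-value 0.165 with edgeR). Hdac9 stood at 12.9, 17.0 and 14.4 CPM in WT and at 10.7, 12.4 and 12.5 CPM in M92KO mice (-0.32, adjusted p-value 0.36). The count of 2 came to 1 without WT replicate 2 and to 4, all lower, without M92KO replicate 2.

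Of 19 activation and proliferation genes, 16 were tested and 2 were lower at the unadjusted threshold, near the share of all genes tested (12.4% in either direction). Ccnd2, a cyclin of the first growth phase, stood at 28.7, 32.5 and 27.2 CPM in WT and at 17.1, 22.7 and 23.2 CPM in M92KO mice (log2 fold change -0.49, adjusted p-value 0.214 with edgeR), without overlap. Cdkn1a, given above for WT mice, stood at 20.6, 24.6 and 34.8 CPM in M92KO mice (-0.82, adjusted p-value 0.336), and its groups overlapped. The count of 2 came to 1 without M92KO replicate 1 or M92KO replicate 2, and with the study's steps it was made up of 1 higher and 1 lower gene.

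Of 22 differentiation and fusion genes, 19 were tested, with 2 higher and 2 lower at the unadjusted threshold, against 5.47% and 6.92% of all genes tested, and 7 lay above 0 and 12 below. Actc1, the cardiac actin that is also made by developing muscle, stood at 284, 433 and 484 CPM in WT and at 197, 180 and 290 CPM in M92KO mice (log2 fold change -0.85, adjusted p-value 0.214 with edgeR). Klhl41, a sarcomere assembly gene, stood at 716, 786 and 756 CPM in WT and at 777, 1221 and 1175 CPM in M92KO mice (0.49, adjusted p-value 0.281), with M92KO replicate 1 near the WT level. Lsmem1 was lower (-0.36, adjusted p-value 0.324), and Musk, the receptor kinase of the neuromuscular junction named after its values were seen, was higher (0.28, adjusted p-value 0.335). The count of 4 came to 2 without M92KO replicate 2 or with the study's steps and to 6 without WT replicate 1. The fusion genes Mymk and Mymx had at most 14 counts in a library and were not tested, so whether they differed is not known.

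Fibre identity genes overlapped between the genotypes in their sum. All 14 were tested, and 1 was higher at the unadjusted threshold, near the 5.47% of all genes tested, with 7 above 0 and 7 below. The sums were 153300 to 171600 CPM in WT and 153700 to 165500 CPM in M92KO mice. The higher gene was Myh2, the myosin heavy chain of type IIa fibres, at 2124, 2239 and 1612 CPM in WT and 2018, 3575 and 4099 CPM in M92KO mice (log2 fold change 0.70, adjusted p-value 0.314 with edgeR), where M92KO replicate 1 again lay within the WT range. The count of 1 came to 0 without WT replicate 3, M92KO replicate 2 or M92KO replicate 3, and to 2 without M92KO replicate 1.

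**Figure D5:**
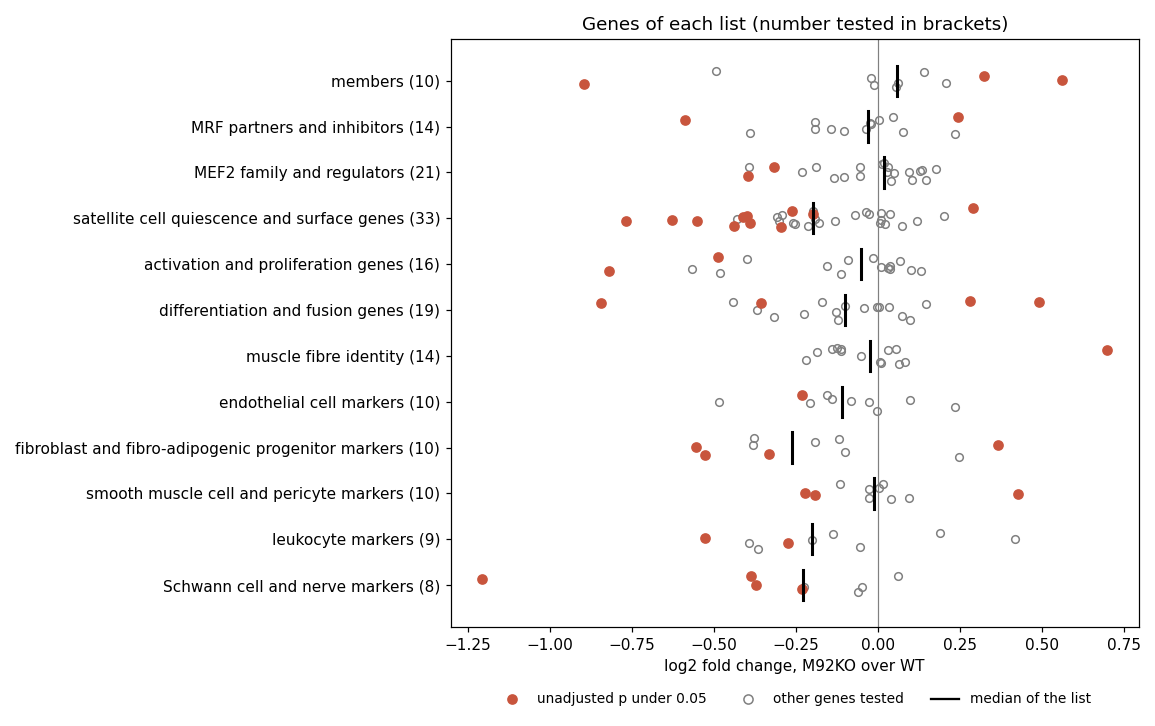
Log2 fold change of M92KO over WT for every tested gene of the 10 described genes (top row, labelled members) and of the 11 lists, with the number tested in brackets. Filled points have an unadjusted edgeR p-value under 0.05, open points do not, and the black bar is the median of the list, which lies at -0.20 for the quiescence and surface genes and at 0.06 for the 10 genes.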

How the data were processed

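RNA-seq libraries were prepared from total RNA of Gas muscle with a SMARTer kit. The authors deposited raw counts, the unnormalized number of reads on each of 34714 gene symbols in each library. The submitters' processing notes name GRCm38 (mm10). The aligner, the counting program, the annotation and the strandedness are not given in the sources used here. The counts were fitted with edgeR 4.0.16 under R 4.3.3: filterByExpr (minimum count 10, minimum total count 15), TMM normalization and the quasi-likelihood test without covariates, which replaced the study's own steps (normalizeBetweenArrays, log2 and limma) because the values are counts. The study's steps (limma 3.58.1) and DESeq2 1.42.0 served as alternatives. p-values were adjusted over 15788 tested genes with the Benjamini-Hochberg method. The two-sided exact permutation test was run on log2 CPM and on the log2 ratios to Pax7. Its p-values for the ratios were adjusted over the 8 ratios with the same method. Intervals are 95%, and Poisson intervals cover counting error only. On simulated data with 15788 genes of this comparison, edgeR found 77 of 100 genes changed by log2 1 and 100 of 100 changed by log2 2, with 14 false calls. The simulated counts followed the dispersion trend alone, without gene-specific spread or a deviating library. The numbers found therefore do not give the power for genes of the real data, which may be lower.

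The members and lists (174 further genes in 11 lists) were chosen with earlier results of these data known. Named were all 10 members, up to 3 genes of each list with the smallest p-value among those under 0.05, the 3 genes closest to Pax7 and to Myod1, and Ckm and Acta1. Other genes were named after their values were seen. Replicate numbers came from the labels and same-numbered libraries deviated together only weakly (r 0.015 to 0.081), so they were not taken as pairs. Python 3.11.15 with pandas 2.3.3, scipy 1.17.1 and matplotlib 3.10.9 made the tables and figures.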

Additional observations from a re-analysis of the deposited data

How the results depend on the processing

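The alternatives were DESeq2's size factors, DESeq2's Wald test, the study's steps, leaving the filter out, a minimum of 10 counts in each library, the replicate number as a block and each library left out in turn, and, chosen after seeing the data, offsets for GC content and transcript length (92.2% of tested genes had both) without and with the block. None of the 10 genes passed the adjusted threshold in any of these 14 fits. Pax7 (0.42 to 0.68), Cdh15 (0.26 to 0.38) and Calcr (-1.09 to -0.65) kept their direction and an unadjusted p-value under 0.05 in all 14, with adjusted p-values of 0.0545 to 0.634, 0.0906 to 0.602 and 0.12 to 0.733. With a library left out, 3 to 4 of the 10 genes passed the unadjusted threshold. Without M92KO replicate 1 Mef2c was the added gene, and without WT replicate 2 it was Myog, at -0.77.

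The log2 difference changed sign for Pax3 (0.0394 with the study's steps, 0.0096 with the GC and length offsets, 0.0155 with the offsets and the replicate block, -0.1155 to 0.0827 with a library left out, the highest without WT replicate 2), Myod1 (-0.1067 without WT replicate 2, -0.015 without M92KO replicate 1, up to 0.252 without WT replicate 3), Myog (0.1078 without WT replicate 3), Mef2a (0.0115 with the offsets, 0.0097 with the offsets and the block, -0.0954 without M92KO replicate 3 to 0.0529 without M92KO replicate 1) and Mef2c (-0.0385 with the study's steps, -0.0479 without M92KO replicate 3 to 0.1936 without M92KO replicate 1). The cause was not tested.

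Over all genes, 0 passed the adjusted threshold, against 322 with DESeq2's Wald test, 42 with the study's steps, 6 without the filter, 2 with the replicate block, 2 with the offsets and the block, and 0 to 401 with a library left out (401 without M92KO replicate 1). The unadjusted count of 1955 ranged from 1222 without WT replicate 2 to 2984 without M92KO replicate 1. Its share of higher genes was 44.1%, and 54.4% with the study's steps. With the block the difference of Pax7 was 0.57, and the block changed no call among the 10 genes. Pax3, Myf5 and Calcr had from 26 to 118 counts in a library, which limits the precision of their differences.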
